A study of Homo sapiens and Mus musculus with 17 samples.

Results

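Glycosylphosphatidylinositol (GPI) is a glycolipid that the cell builds in the membrane of the endoplasmic reticulum (ER) and attaches to the carboxyl end of certain proteins, which it then holds on the outer face of the plasma membrane. The lipid phosphatidylinositol receives glucosamine, mannose and ethanolamine phosphate in a fixed order, and the GPI transamidase then cuts the signal peptide from the protein and joins the protein to the finished glycolipid. After attachment, the lipid part is remodeled on the way to the cell surface. Enzymes, cofactors and subunits of this pathway are the genes described here. They were chosen by name as 31 genes of GPI synthesis, attachment and remodeling and of the supply of dolichol-phosphate-mannose, the mannose donor of the pathway. All 31 were listed among the 62714 genes measured in HEK293T cells, and 30 among the 55491 genes measured in mouse brown adipose tissue (BAT), where PIGY had no row under that name. The 5 subunits of the transamidase (PIGK, PIGT, PIGS, PIGU and GPAA1) are set apart from the 26 genes of the other steps.

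The study asked which proteins are substrates of SEL1L–HRD1 ER-associated degradation (ERAD), a system in which the ubiquitin ligase HRD1 (gene SYVN1) and its partner SEL1L remove proteins from the ER, and followed the protein of PIGK in detail. The mRNA values address whether the transcripts of this pathway differ between genotypes. RNA with polyA tails was measured in 9 libraries of the human embryonic kidney line HEK293T (3 WT, 3 HRD1 KO, 3 SEL1L KO) and in BAT from 8 mice (2 Hrd1 KO, 3 Sel1L KO, 3 WT). The HEK293T knockouts were made with CRISPR/Cas9, and the WT control cells had received plasmid that carried no guide RNA. Whether each knockout is 1 clone is not given in the sources used here. The mice were C57BL/6J and 12 weeks old, and the knockouts were Sel1l flox/flox and Hrd1 flox/flox (Syvn1) animals with Ucp1-Cre. Whether the WT mice carried floxed alleles or Cre is not given in the labels, and the methods describe the mice as littermates. Ucp1 is active in brown adipocytes, so the other cells of the tissue keep the gene. In such bulk tissue, fewer cells of a type and less RNA per cell cannot be told apart.

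Values are FPKM, the estimated fragments of a gene scaled by the length of its transcript and by the total of the library. The deepest library had 1.91 times the depth of the shallowest in HEK293T and 1.62 times in BAT, and absolute depths are unknown. SEL1L mRNA was lower in every SEL1L KO library of HEK293T than in every WT library. SYVN1 was 22.47, 18.48 and 19.83 in the HEK293T libraries labeled HRD1 KO, all above the 16.7 to 16.95 of WT. Syvn1 was 14.05 and 13.77 in the BAT libraries labeled Hrd1 KO, both above the 5.2 to 5.65 of WT. Sel1l was 25.2, 8.17 and 8.38 in the BAT libraries labeled Sel1L KO, on both sides of the 9.1 to 12.88 of WT. These 3 groups are therefore named as labeled. The summed FPKM of 6 genes that mark other human cells was 4.2 to 15.4, with PTPRC and ADIPOQ at 0 in all HEK293T libraries and COL1A1 highest, at 3.28 to 14.99. The summed FPKM of 5 genes that mark HEK293T was 64.2 to 101 in SEL1L KO, 89.3 to 101 in WT and 106 to 174 in the libraries labeled HRD1 KO. Of these 5, NEFM was 0.34, 0.11 and 50.89 in SEL1L KO replicates 1, 2 and 3, so this group was not uniform. NEFM was 23.02 to 39.98 in WT and 50.21 to 104.23 in the libraries labeled HRD1 KO. What sets the SEL1L KO libraries apart from each other was not tested. The summed FPKM of 9 brown adipocyte genes was 24000 to 26100 in WT tissue. It was 18000 to 23500 in tissue labeled Hrd1 KO and 19400 to 23900 in that labeled Sel1L KO. Most of each sum was Fabp4, at 11645.93 to 17463.33, and single genes moved in both directions. Ucp1 was 2041.0 to 2708.63 in WT, 1138.28 and 1358.36 in Hrd1 KO, and 3453.41, 1266.02 and 1586.69 in Sel1L KO. In that order Dio2 was 33.48 to 41.62, 5.77 and 4.69, and 286.14, 13.23 and 8.37. Plin1 was 479.57 to 575.18, 810.37 and 823.86, and 510.96, 663.37 and 570.57. In the same order, 8 skeletal muscle genes summed to 1.17 to 3.21, 11.5 to 336 and 0.95 to 57.2, 6 macrophage genes to 26.3 to 34.8, 52.1 to 55.3 and 57.1 to 129, and 4 endothelial genes to 62.8 to 85.3, 104 to 135 and 65.1 to 117. BAT Sel1L KO replicate 1 stood apart, with a Ppargc1a FPKM of 387.05 against 4.13 to 14.39 in the other 7 libraries.

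The genes differed widely in level among themselves. In HEK293T, 30 of 31 were expressed enough to be tested (3 or more libraries with an FPKM of 1 or higher), and CWH43, a lipid remodeling factor, was listed at 0 in all 9. The WT means of these 30 ran from 2.13 for PIGZ, which can add an extra mannose, to 116 for DPM3, a membrane subunit of dolichol-phosphate-mannose synthase. Their median of 29.0 lay at percentile 73.8 of all genes tested. In BAT, 27 of 30 were tested, with 2 libraries required. Cwh43 was listed at 0 in all 8 libraries, and Pigz and Pgap1 stayed at or under 0.27 and 0.40. The WT means ran from 1.20 for Piga to 249 for Dpm1, with a median of 6.49 at percentile 50.8.

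Among the transamidase subunits, the mean FPKM in HEK293T WT cells was 63.5 ± 5.39 (SD, n = 3) for GPAA1, 47.4 ± 1.52 for PIGT, 31.8 ± 0.552 for PIGS, 28.6 ± 1.28 for PIGK and 18.4 ± 2.73 for PIGU, a spread from percentile 63.2 to 87.7. The WT libraries of these 5 genes did not overlap with those of the next in the order. In BAT WT tissue the order was Gpaa1 (11.5 ± 2.44), Pigk (10.1 ± 2.13), Pigt (8.37 ± 0.405), Pigu (8.18 ± 0.759) and Pigs (6.56 ± 0.887), from percentile 51.1 to 64.9. Here each gene's WT libraries overlapped with those of the next but for Pigu and Pigs, which did not.

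**Figure D1:**
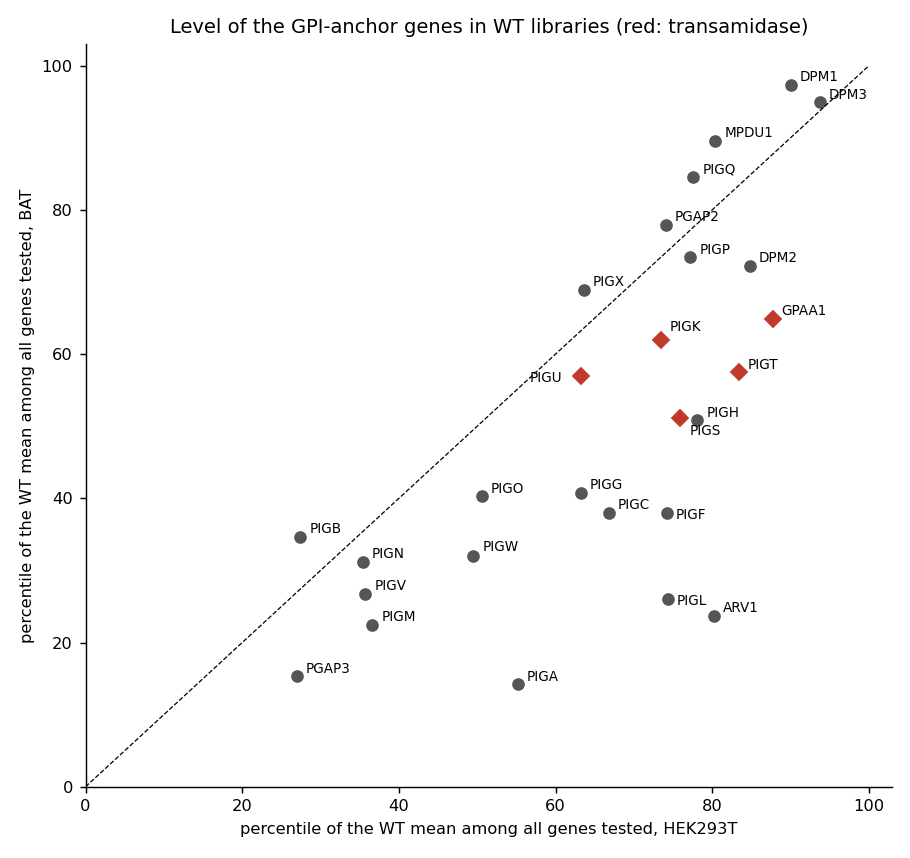
Percentile of the WT mean FPKM of each gene among all genes tested in HEK293T (x axis, 15796 genes) and in BAT (y axis, 12473 genes), with transamidase subunits as red diamonds and the line of equal percentile dashed. DPM1 and DPM3 lie highest in both, while ARV1, PIGL and PIGA lie at percentiles 80.2, 74.3 and 55.2 in HEK293T and at 23.7, 26.0 and 14.2 in BAT.

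Within each table, the rank of a gene among all genes allows a description across cell types that were normalized separately. DPM1, the catalytic subunit of the synthase, and DPM3 were the highest pair in both, with DPM1 at percentile 90.0 in HEK293T and 97.3 in BAT, while DPM2 lay at 84.8 and 72.2. ARV1, an ER protein of lipid transport, PIGL, the de-N-acetylase that makes glucosaminyl phosphatidylinositol, and PIGA, the catalytic subunit of the enzyme of the first step, were those with the widest gap between the 2 tables. These ranks were not tested.

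The sequence just before the start of transcription is shown for 4 transamidase genes, since their transcripts were measured together and a shared element would be looked for here. Each run holds the 100 bases before the start site that RefSeq gives (GRCh38.p14), 5′ to 3′ on the strand of the gene. GENCODE, the source of the gene coordinates given below, starts some of these genes elsewhere. By it, the windows of PIGU and PIGS lie within the gene and that of PIGT overlaps it, while that of PIGK lies just before it. Capitals mark CCAAT or CCACG on either strand, the ends of the ER stress response element, which is bound by factors of the unfolded protein response when both stand 9 bases apart. These ends were picked for display after the results were known.
PIGK (chr1:77219431-77219530, minus strand): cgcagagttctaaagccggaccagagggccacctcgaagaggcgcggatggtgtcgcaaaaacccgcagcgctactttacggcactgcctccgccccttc
PIGT (chr20:45416041-45416140, plus strand): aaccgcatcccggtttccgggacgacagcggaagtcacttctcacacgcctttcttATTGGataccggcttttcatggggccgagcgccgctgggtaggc
PIGS (chr17:28571525-28571624, minus strand): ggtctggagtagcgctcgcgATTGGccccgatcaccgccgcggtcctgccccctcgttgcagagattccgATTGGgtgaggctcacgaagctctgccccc
PIGU (chr20:34677093-34677192, minus strand): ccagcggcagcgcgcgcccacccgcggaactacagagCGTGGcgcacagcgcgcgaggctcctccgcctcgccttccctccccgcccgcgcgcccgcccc

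PIGT held 1 CCAAT and PIGS held 2, PIGU held 1 CCACG, and the window of PIGK held neither. In windows of this length, CCAAT was found in 6 of the 26 pathway genes with a promoter in the table (23.1%) and in 18.7% of all 27305 promoters, and CCACG in 6 of 26 (23.1%) and in 16.8%. The whole element, CCAAT followed after 9 bases of any kind by CCACG, was searched on both strands from 250 bases before to 50 bases after the start. It was found in 0 of the 26 pathway genes and in 0.0806% of all promoters. TGACGTGG, the unfolded protein response element, was in 0 of 26 and in 0.795%, and TGATGNAA, the element bound by ATF4, was in 0 of 26 and in 3.67%. The promoters of the pathway genes had a median of 64.3% G and C, against 58.3% over all promoters. The overlap of a pair of these elements in 1 promoter was not counted, and a missing match says only that these letters are not in the window.

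In HEK293T, none of the 5 transamidase transcripts had a difference between genotypes that passed the test given below. On the deposited scale their log2 fold changes ran from 0.03 to 0.13 in the libraries labeled HRD1 KO (median 0.06, beside −0.05 over all genes). In SEL1L KO they ran from −0.32 to −0.04 (median −0.18, beside −0.06). From SEL1L KO to HRD1 KO they ran from 0.12 to 0.34 (median 0.24, beside 0.0). PIGK (ENSG00000142892; GRCh38 chromosome 1, 77088989 to 77219430), the protease that cuts the signal peptide, had FPKM values of 28.86, 27.16 and 29.66 in WT, 24.26, 31.56 and 35.82 in the libraries labeled HRD1 KO, and 26.78, 27.43 and 29.27 in SEL1L KO. The 3 groups overlapped, and HRD1 KO held both the lowest and the highest library. The log2 fold change of PIGK on the log2(FPKM + 0.1) scale was 0.08 (95% interval −0.34 to 0.50) in the libraries labeled HRD1 KO and −0.04 (−0.46 to 0.38) in SEL1L KO. A fit that also took replicate number into account gave intervals of −0.26 to 0.42 and −0.38 to 0.30 in the same order. Changes of the size at the ends of these intervals could not be told from none with 3 libraries a group.

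PIGT (ENSG00000124155; chromosome 20, 45416084 to 45456934), which is bound to PIGK by a disulfide bridge, had FPKM values of 49.01, 45.99 and 47.18 in WT, 55.34, 51.07 and 42.38 in HRD1 KO, and 40.43, 43.6 and 40.71 in SEL1L KO. GPAA1 (ENSG00000197858; chromosome 8, 144082337 to 144093149), the subunit thought to join the protein to GPI, had FPKM values of 60.94, 59.88 and 69.7 in WT, 91.07, 59.82 and 49.23 in HRD1 KO, and 51.47, 52.72 and 48.4 in SEL1L KO. For both, each SEL1L KO library lay below each WT library, while the HRD1 KO libraries spread over both sides of WT. The log2 fold change in SEL1L KO was −0.19 (SE 0.16) for PIGT and −0.32 (SE 0.22) for GPAA1, each with an adjusted p of 1.0. GPAA1 in the libraries labeled HRD1 KO had a change of 0.03, which moved to −0.22 without HRD1 KO replicate 1, its highest library.

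PIGS (ENSG00000087111; chromosome 17, 28553383 to 28571794), a structural subunit, had FPKM values of 32.25, 31.86 and 31.16 in WT, 32.84, 37.91 and 29.23 in HRD1 KO, and 26.99, 31.68 and 25.95 in SEL1L KO. PIGU (ENSG00000101464; chromosome 20, 34560542 to 34698790), which takes part in recognizing the GPI lipid, had FPKM values of 20.67, 19.18 and 15.38 in WT, 24.77, 18.71 and 17.13 in HRD1 KO, and 21.05, 16.88 and 15.7 in SEL1L KO. Both genes overlapped between all groups. Their log2 fold changes were 0.06 and 0.13 in the libraries labeled HRD1 KO and −0.18 and −0.04 in SEL1L KO, none past the test.

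**Figure D2:**
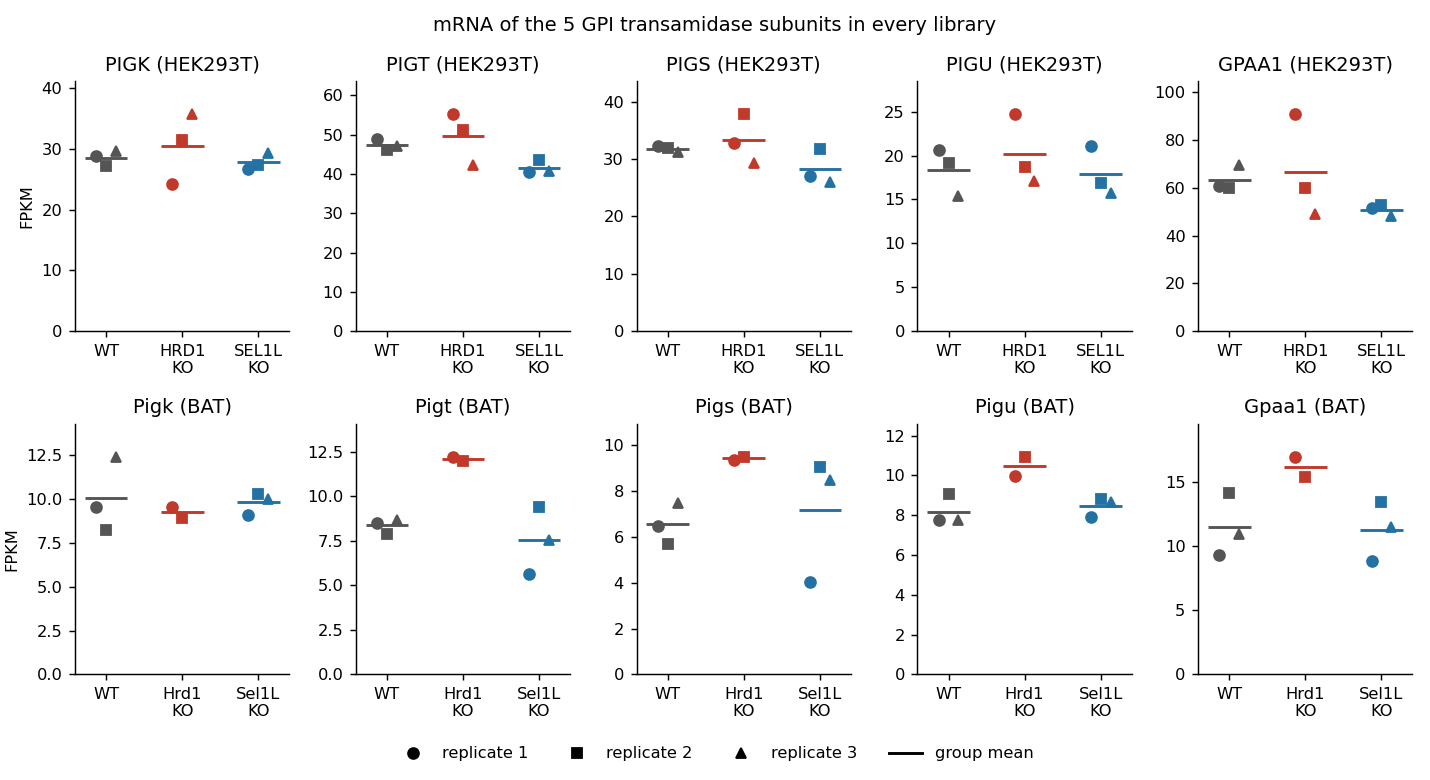
FPKM (y axes from 0) of the 5 transamidase subunits in each HEK293T library (top) and BAT library (bottom) by genotype (x axis), with the replicate number as the symbol and the group mean as a bar. PIGK overlaps between all genotypes in both, while Pigt, Pigs, Pigu and Gpaa1 lie above WT in both Hrd1 KO libraries of BAT.

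Over all 30 pathway genes tested in HEK293T, 0 passed the adjusted threshold of 0.05 (limma with Benjamini-Hochberg adjustment) in the libraries labeled HRD1 KO, where 0.057% of all genes did, and 0 in SEL1L KO, where 0.0317% did. At an unadjusted p under 0.05, 0 pathway genes were higher and 0 lower in HRD1 KO (0.943% and 1.06% of all genes), and 0 were higher and 1 lower in SEL1L KO (0.715% and 0.779%). The median log2 fold change of the pathway was 0.02 in HRD1 KO beside −0.05 over all genes, and −0.04 in SEL1L KO beside −0.06. Between the 2 knockouts, 0 pathway genes passed the adjusted threshold (0.0% of all genes) and 0 passed the unadjusted one in either direction (1.18% higher and 1.16% lower of all genes). The largest such difference was 0.45 (SE 0.36) for PIGZ. In this comparison PIGB, which adds the third mannose, lay fully above SEL1L KO (2.67% of all genes) and 0 genes fully below (2.51%). HRD1 KO replicate 1 had the highest value of all 9 libraries for GPAA1, PIGT and PIGU, and for PIGQ, DPM2 and PIGZ. PIGK was among the genes for which it had the lowest. Without this library, PGAP2 and PIGQ were lower than WT in HRD1 KO at the unadjusted threshold (2.02% of all genes). PIGQ was then also lower than in SEL1L KO (2.12%). Without HRD1 KO replicate 3, GPAA1 was higher than in SEL1L KO at that threshold (2.79%).

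The gene with an unadjusted p under 0.05 was PGAP2, a Golgi protein of the lipid remodeling that follows attachment. Its FPKM was 32.26, 27.08 and 28.95 in WT, 30.13, 21.49 and 19.65 in the libraries labeled HRD1 KO, and 19.18, 19.86 and 22.09 in SEL1L KO. Each SEL1L KO library lay below each WT library, while HRD1 KO overlapped with WT. The change in SEL1L KO was −0.53 on the log2 scale (SE 0.21, unadjusted p = 0.0278, adjusted p = 1.0 by limma), and that in HRD1 KO −0.33 (SE 0.21). Without SEL1L KO replicate 1 or 2, or WT replicate 1 or 3, the unadjusted p in SEL1L KO ranged from 0.052 to 0.091. The other remodeling genes, PGAP1, which removes the acyl chain from inositol, and PGAP3, which removes a fatty acid, were also lower on average in both knockouts (−0.36 and −0.28 in HRD1 KO, −0.52 and −0.34 in SEL1L KO), each with overlapping libraries.

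ARV1 was the pathway gene with all libraries of both knockouts above WT, at 39.11, 42.53 and 38.02 in WT, 48.57, 43.02 and 44.24 in HRD1 KO, and 58.98, 43.88 and 47.12 in SEL1L KO. The lowest library of each knockout exceeded the highest of WT by less than the range of the WT libraries. The change was 0.18 (SE 0.17) in HRD1 KO and 0.32 (SE 0.17) in SEL1L KO, both with an adjusted p of 1.0. In all, 1 pathway gene lay fully above WT and 0 fully below in HRD1 KO (1.96% and 3.04% of all genes), and 1 lay above and 3 below in SEL1L KO (2.41% and 3.72%), the 3 being PGAP2, GPAA1 and PIGT. The comparisons of the 2 knockouts share the WT libraries.

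**Figure D3:**
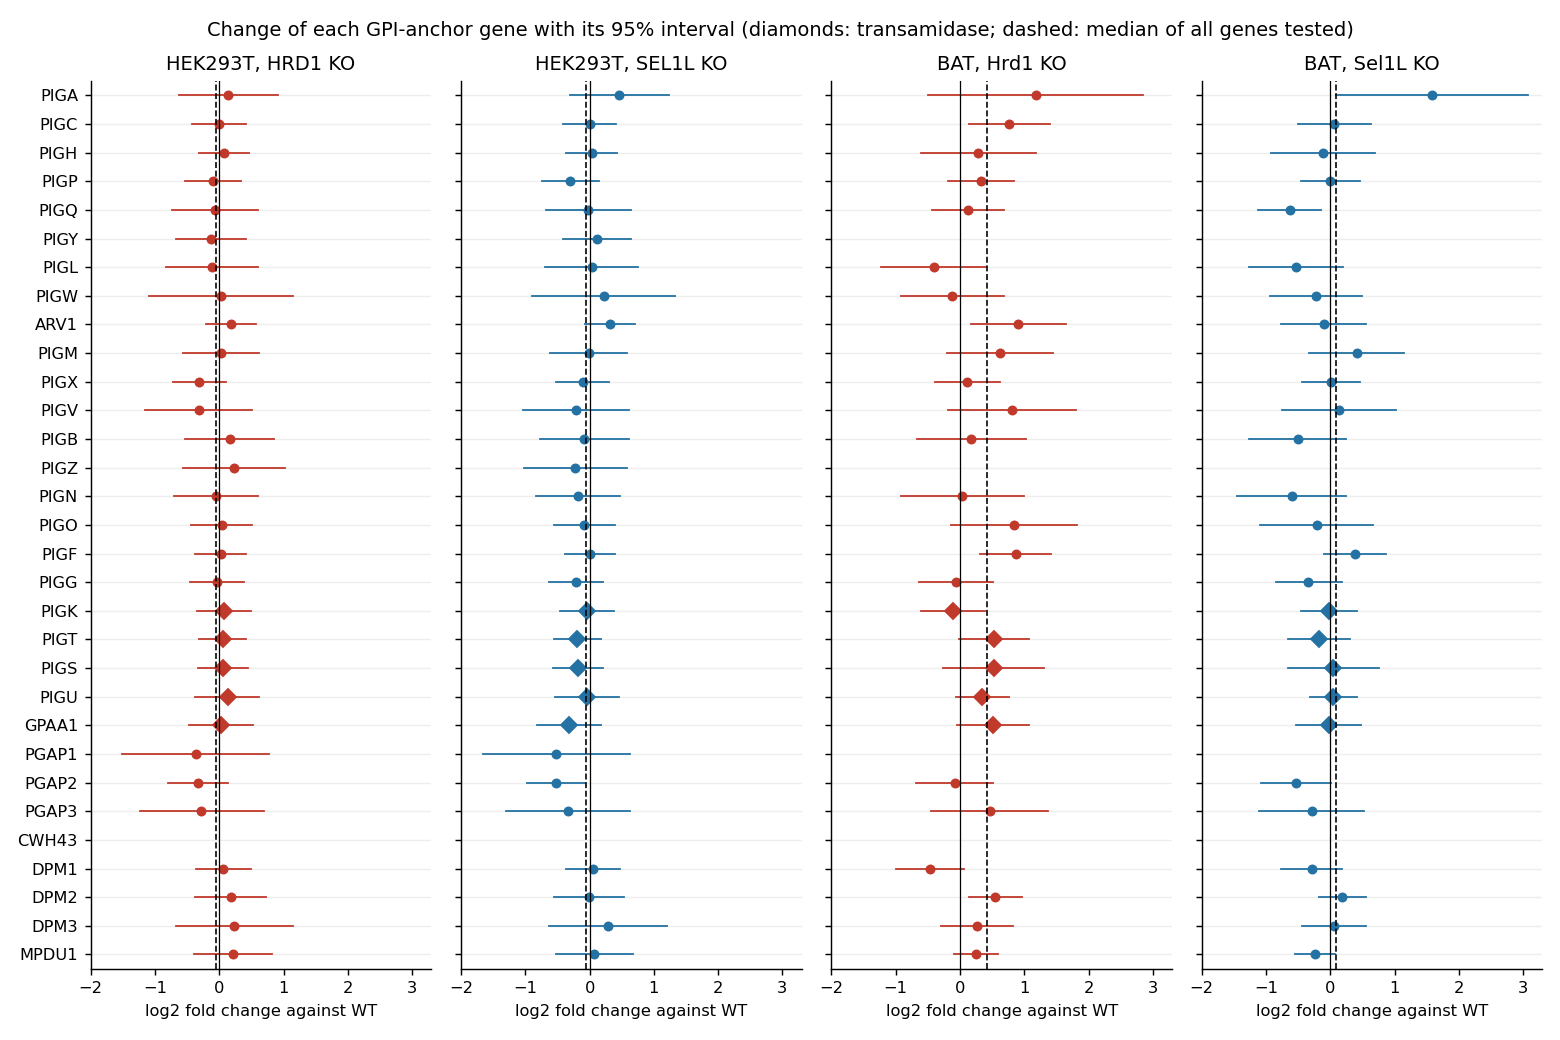
Log2 fold change against WT (x axis) with its 95% interval for every pathway gene tested, in order of its step, in the 4 knockout groups. Diamonds are transamidase subunits, and the dashed line is the median of all genes tested, which lies at 0.42 in BAT Hrd1 KO and within 0.09 of 0 in the other groups.

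The genes that build the glycolipid differed from WT by at most 0.46 on the log2 scale in HEK293T, at any step. The GPI-N-acetylglucosaminyltransferase of the first step was represented by PIGA, PIGC, PIGH, PIGP, PIGQ and PIGY, whose changes ran from −0.13 to 0.14 in the libraries labeled HRD1 KO and from −0.30 to 0.46 in those of SEL1L KO. The mannosyltransferases PIGM with its partner PIGX, PIGV, PIGB and PIGZ ran from −0.32 to 0.23 and from −0.22 to −0.01. The ethanolamine phosphate transferases PIGN, PIGO and PIGG, with PIGF, the partner of PIGO and PIGG, ran from −0.05 to 0.04 and from −0.21 to 0.01. DPM1, DPM2, DPM3 and MPDU1, which supply dolichol-phosphate-mannose or make it usable, ran from 0.06 to 0.23 and from −0.01 to 0.28. None of these 19 genes passed the unadjusted threshold in either knockout.

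Replicate number accounted for more of the variation than genotype in most pathway genes of HEK293T. Libraries with the same number deviated together across all genes, so the share of each gene's variation that goes with number and with genotype was computed. Number took a median of 41.4% and genotype 10.6% over the pathway, beside 54.3% and 12.4% over all genes tested. Number exceeded genotype in 22 of 30 pathway genes, and in 79.1% of all genes. These shares are a description with no test.

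PIGL took 95.1% by number, PIGM 92.8%, PIGW 90.5% and DPM3 89.7%. PIGW, which acylates inositol, had FPKM values of 6.07, 9.68 and 15.39 in WT replicates 1, 2 and 3, of 6.09, 8.23 and 18.87 in the same replicates of HRD1 KO, and of 8.97, 8.02 and 19.86 in SEL1L KO. DPM3 had FPKM values of 172.02, 114.93 and 62.21 in WT, 180.72, 137.82 and 80.27 in HRD1 KO, and 188.19, 121.92 and 96.79 in SEL1L KO. The library numbered 3 was the highest of its genotype for PIGW and the lowest for DPM3 in all 3 genotypes, and what the number stands for is not given in the sources used here. Genotype took the most in PGAP2 (61.7%), PIGX (55.2%), ARV1 (53.7%) and PIGT (52.7%).

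**Figure D4:**
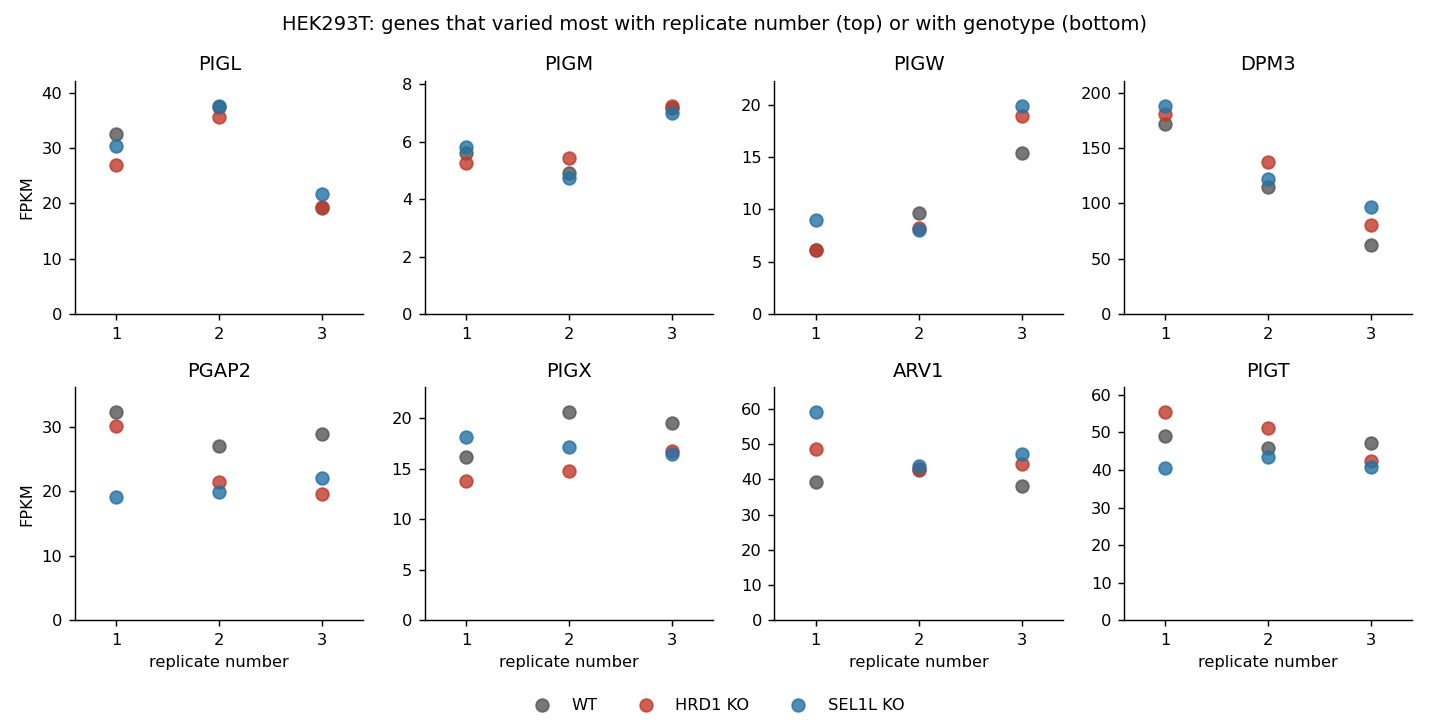
FPKM (y axes from 0) by replicate number (x axis) and genotype (color) in HEK293T for the 4 pathway genes with the largest share of variation by number (top) and by genotype (bottom). In the top row the genotypes sit together at each number, and in PGAP2 the WT libraries lie above SEL1L KO at every number.

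Compared within number, 3 of 30 pathway genes were higher in all 3 pairs of HRD1 KO and WT (9.7% of all genes) and 3 were lower (15.6%). In SEL1L KO, 2 were higher (10.4%) and 7 lower (19.6%). The 7 were PIGS, PIGT, GPAA1, PGAP1, PGAP2, PIGG and PIGP, so that 3 of the 5 transamidase subunits were among them, with within-number differences of −0.01 to −0.26 for PIGS, −0.08 to −0.28 for PIGT and −0.18 to −0.53 for GPAA1. PIGK differed from WT of the same number by −0.25, 0.22 and 0.27 in HRD1 KO and by −0.11, 0.01 and −0.02 in SEL1L KO, with both signs in each.

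In BAT, most pathway transcripts were higher in the 2 libraries labeled Hrd1 KO than in WT, as were most genes of the tissue. Of 27 pathway genes tested, 0 passed the adjusted threshold of 0.01 (0.369% of all genes did), and 4 were higher at an unadjusted p under 0.05 and 0 lower, where 25.4% and 2.02% of all genes were. The median change of the pathway was 0.33 on the log2 scale and that of all genes 0.42. Scaling the libraries by the median ratio of their genes moved these medians to −0.12 and −0.02, and left 0 pathway genes higher and 4 lower at the unadjusted threshold, which 18.1% of all genes then passed in either direction. Directions in this group are given on the deposited scale and have to be read beside this shift of all genes.

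Most pathway genes stood below that shift, with 12 of 27, and 3 of the 5 transamidase subunits, above the median of all genes. Pigk was among those below. Its FPKM was 9.57, 8.23 and 12.4 in WT, 9.57 and 8.9 in Hrd1 KO, and 9.08, 10.31 and 10.01 in Sel1L KO, and the libraries of the 3 groups overlapped. The change in Hrd1 KO was −0.10 (95% interval −0.60 to 0.39, adjusted p = 0.766) on the deposited scale, and after scaling −0.55 (SE 0.20, unadjusted p = 0.0227, adjusted p = 0.193). In Sel1L KO it was −0.02 (−0.46 to 0.42). After scaling, Pigk was 1 of the 4 pathway genes lower in Hrd1 KO at the unadjusted threshold, with Dpm1, Pgap2 and Pigg.

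The other 4 subunits were above WT in both Hrd1 KO libraries. Pigt had FPKM values of 8.51, 7.91 and 8.68 in WT, 12.22 and 11.97 in Hrd1 KO, and 5.63, 9.41 and 7.56 in Sel1L KO. Pigs had 6.5, 5.71 and 7.48 in WT, 9.38 and 9.5 in Hrd1 KO, and 4.04, 9.05 and 8.47 in Sel1L KO. Neither gene's Hrd1 KO libraries overlapped with WT, while Sel1L KO spread over both sides, with replicate 1 lowest. Pigu had 7.75, 9.06 and 7.74 in WT, 9.99 and 10.93 in Hrd1 KO, and 7.92, 8.82 and 8.64 in Sel1L KO. Gpaa1 had 9.31, 14.12 and 10.97 in WT, 16.97 and 15.42 in Hrd1 KO, and 8.87, 13.42 and 11.52 in Sel1L KO. Again the Hrd1 KO libraries lay above all others and Sel1L KO overlapped with WT. The log2 fold changes in Hrd1 KO were 0.53 for Pigt, 0.53 for Pigs, 0.35 for Pigu and 0.51 for Gpaa1, with adjusted p-values of 0.19, 0.341, 0.241 and 0.217. After scaling they were 0.08, 0.08, −0.09 and 0.07, near the median of all genes. In Sel1L KO they were −0.18, 0.05, 0.05 and −0.02 on the deposited scale.

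A ratio within the library does not depend on its scaling. PIGK was therefore set against the geometric mean of the other 4 subunits, a measure chosen after the values were seen. In BAT the log2 ratio was 0.27, −0.08 and 0.53 in WT, −0.30 and −0.40 in Hrd1 KO, and 0.52, 0.04 and 0.16 in Sel1L KO. Both Hrd1 KO libraries lay below all others. The difference from WT was −0.59 in Hrd1 KO (two-sided exact permutation test, p = 0.2, the smallest that 2 against 3 libraries allow) and 0.01 in Sel1L KO (exact p = 1.0). In HEK293T the log2 ratio was −0.38, −0.41 and −0.26 in WT, −0.89, −0.28 and 0.16 in HRD1 KO, and −0.30, −0.28 and −0.03 in SEL1L KO. Here HRD1 KO held the lowest and the highest library. The differences from WT were 0.01 in HRD1 KO (exact p = 1.0) and 0.14 in SEL1L KO (exact p = 0.3, where 0.1 is the smallest possible). This test does not use the pairing of the HEK293T libraries by replicate number. Each SEL1L KO library lay above the WT library of its number, while HRD1 KO lay on both sides, and this was not tested. Leaving out 1 library at a time gave differences of −0.24 to 0.29 in HEK293T HRD1 KO and −0.15 to 0.15 in BAT Sel1L KO, of either sign. The differences were 0.06 to 0.19 in HEK293T SEL1L KO and −0.75 to −0.45 in BAT Hrd1 KO.

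**Figure D5:**
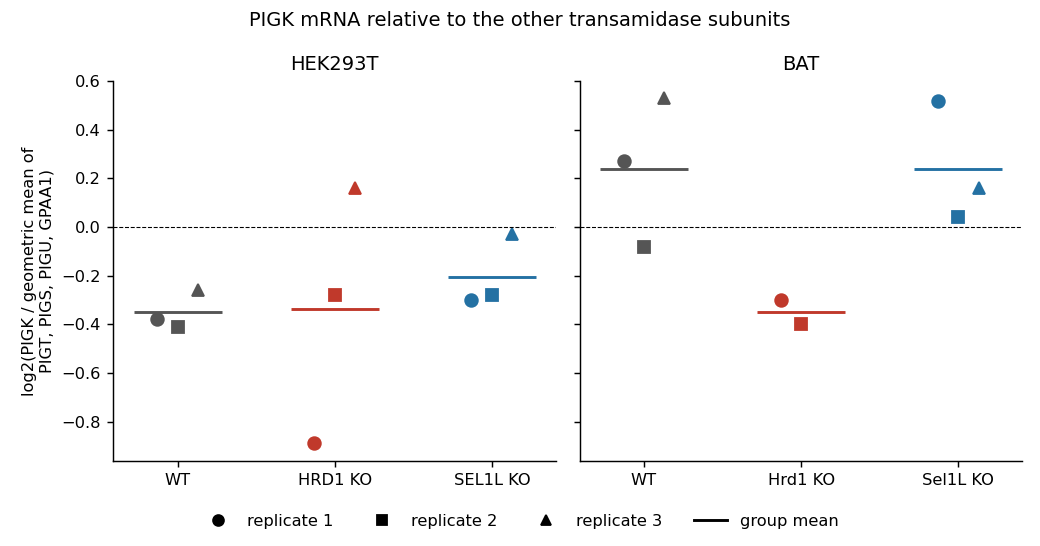
Log2 ratio of PIGK FPKM to the geometric mean of the other 4 transamidase subunits (y axis) in each library by genotype (x axis), with the replicate number as the symbol and the group mean as a bar. Both BAT Hrd1 KO libraries lie at −0.30 and −0.40 against −0.08 to 0.53 in WT, and the HEK293T HRD1 KO libraries spread from −0.89 to 0.16.

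The 4 genes past the unadjusted threshold in BAT Hrd1 KO were Pigf, Dpm2, Arv1 and Pigc. Pigf had FPKM values of 3.86, 3.45 and 4.01 in WT, 7.38 and 6.54 in Hrd1 KO, and 3.93, 5.34 and 5.73 in Sel1L KO. Its change in Hrd1 KO was 0.87 (SE 0.24, unadjusted p = 0.00598, adjusted p = 0.0706), the lowest p of the pathway in any comparison, and 0.42 after scaling (unadjusted p = 0.0638). Dpm2, a regulatory subunit of the synthase, had 14.35, 15.56 and 18.48 in WT and 22.0 and 25.31 in Hrd1 KO, a change of 0.55 that became 0.11. Arv1 had 2.26, 2.11 and 1.63 in WT and 4.53 and 3.21 in Hrd1 KO, a change of 0.91 that became 0.47. Pigc, a subunit of the enzyme of the first step, had 4.3, 3.93 and 3.15 in WT and 6.77 and 6.22 in Hrd1 KO, a change of 0.77 that became 0.33. For all 4, both Hrd1 KO libraries lay above WT.

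In all, 15 of 27 pathway genes lay fully above WT in Hrd1 KO, where 51.1% of all genes did, and 2 fully below, where 5.79% did. The 2 were Dpm1 and Pigl. Dpm1 had FPKM values of 265.59, 264.14 and 217.1 in WT, 157.01 and 205.79 in Hrd1 KO, and 264.69, 159.57 and 195.94 in Sel1L KO. Its change of −0.46 (SE 0.23, unadjusted p = 0.0789) in Hrd1 KO became −0.91 after scaling (unadjusted p = 0.0168, adjusted p = 0.172), so that Dpm1 and Dpm2, subunits of the same enzyme, had changes of opposite sign on the deposited scale. Pigl had 2.02, 2.7 and 1.96 in WT and 1.47 and 1.83 in Hrd1 KO, a change of −0.40 (SE 0.35). The largest change of the pathway in Hrd1 KO was 1.18 for Piga, with an SE of 0.73. Summed muscle, macrophage and endothelial genes were higher in both Hrd1 KO libraries than in WT (values above), and their part in these results was not tested. Without Hrd1 KO replicate 1, the library with the highest muscle sum, the median change of the pathway was 0.38 beside 0.35 over all genes. Without Hrd1 KO replicate 2 it was 0.44 beside 0.5. Each of these 2 fits leaves 1 Hrd1 KO library, so no number of genes past a threshold is given for them. Without a single WT library, 2 to 5 pathway genes were higher at the unadjusted threshold in place of 4. In these fits 18.2% to 20.6% of all genes were higher. Without Sel1L KO replicate 1, which enters this comparison only through the shared spread, 12 were higher and 1 lower (38.9% and 3.66% of all genes), still with 0 past the adjusted threshold and a lowest adjusted p of 0.0127.

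In the BAT libraries labeled Sel1L KO, 0 of 27 pathway genes passed the adjusted threshold (0.104% of all genes did), and 1 was higher and 1 lower at the unadjusted one, where 12.7% and 5.08% of all genes were. The median change was −0.10 beside 0.09 over all genes, and −0.19 beside 0.00 after scaling. The higher gene was Piga, with an FPKM of 1.71, 0.85 and 1.04 in WT, 11.35, 2.19 and 1.91 in Sel1L KO, and 3.6 and 2.06 in Hrd1 KO. All knockout libraries lay above WT, and Sel1L KO replicate 1 far above the rest. The change was 1.58 (SE 0.65, unadjusted p = 0.0405, adjusted p = 0.258), and 0.78 (unadjusted p = 0.0756) without Sel1L KO replicate 1. The unadjusted p was also above 0.05 when WT replicate 2 (0.112), WT replicate 3 (0.0924), Hrd1 KO replicate 1 (0.0585) or Hrd1 KO replicate 2 (0.0581) was left out, the last 2 entering through the shared spread. After scaling, 0 genes were higher and 3 lower (Pigq, Pgap2 and Pigg), where 16.4% of all genes passed in either direction, and the unadjusted p of Piga was 0.0622. Without Sel1L KO replicate 1, 3 genes were higher (Pigf, Pigs and Pigv) and 2 lower (Dpm1 and Pigq), where 17.9% and 5.48% of all genes did.

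The lower gene was Pigq, another subunit of the enzyme of the first step. Pigq had FPKM values of 33.84, 31.99 and 37.58 in WT, 15.98, 26.48 and 25.82 in Sel1L KO, and 34.34 and 41.07 in Hrd1 KO. Each Sel1L KO library lay below each WT library, and Hrd1 KO overlapped with WT. The change was −0.63 (SE 0.22, unadjusted p = 0.0185, adjusted p = 0.188) in Sel1L KO, and −0.39 (unadjusted p = 0.0185) without replicate 1. Without WT replicate 3 the unadjusted p was 0.0636. In all, 1 pathway gene (Piga) lay fully above WT and 6 fully below (Mpdu1, Pgap2, Pigb, Pigg, Pigl and Pigq), where 17.7% and 8.43% of all genes did. Pgap2 had FPKM values of 18.5, 23.17 and 23.39 in WT, 10.46, 17.38 and 18.26 in Sel1L KO, and 19.16 and 21.63 in Hrd1 KO. Its change in Sel1L KO was −0.53 (SE 0.23, unadjusted p = 0.0536 by limma) on the deposited scale and −0.63 after scaling. The change of PGAP2 in SEL1L KO of HEK293T was −0.53 and −0.47 in the same order, in a table normalized separately. The Sel1L KO libraries of Pgap2 lay below WT, and Hrd1 KO overlapped with WT.

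The 2 BAT knockouts differed from each other in 0 pathway genes at the adjusted threshold (0.0401% of all genes), and 6 were higher in Hrd1 KO and 0 lower at the unadjusted one (15.5% and 1.18% of all genes). The 6 were Mpdu1 (0.49, adjusted p = 0.211), Pigq (0.76), Arv1 (1.01), Pigt (0.71), Pigc (0.71) and Pigo (1.05). Without a single library of Sel1L KO or WT the number higher ranged from 4 to 7, where 12.2% to 18.8% of all genes were. Leaving out a Hrd1 KO library leaves 1 in that group, so no number is given for it. The median difference of the pathway was then 0.4 without replicate 1 and 0.46 without replicate 2, beside 0.25 and 0.37 over all genes. Of 27 genes, 16 lay fully above Sel1L KO (32.5% of all genes) and 0 fully below (3.37%). The pathway median was 0.45 beside 0.30 over all genes, and 0.09 beside −0.05 after scaling, when 0 pathway genes and 10.4% of all genes passed the unadjusted threshold. All 8 libraries of Mpdu1, a protein needed to use dolichol-phosphate-mannose, lay between 43.66 and 68.98.

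Some values rest on reads that cannot be assigned to the gene alone. PIGY, a small subunit of the first step, had the same FPKM as PYURF in all 9 HEK293T libraries (46.89, 49.81 and 77.65 in WT). Both genes are annotated at chromosome 4, 88520998 to 88523776, with the same exons and different reading frames, so the values cannot be separated. In BAT, Pyurf had a row, and whether it covers reads of Pigy is not known here. Its FPKM was 42.26, 43.96 and 41.66 in WT, 30.52 and 34.32 in Hrd1 KO, and 24.84, 33.25 and 38.1 in Sel1L KO. The change was −0.40 (SE 0.20, adjusted p = 0.232 by limma) in Hrd1 KO and −0.43 (SE 0.18, adjusted p = 0.257) in Sel1L KO. After scaling it was −0.85 and −0.53. The processed pseudogene PIGCP1 had a mean FPKM of 10.0 over the HEK293T libraries, and reads shared with PIGC (21.4 ± 2.65 in WT) are divided by estimate. PIGL, PIGW, PIGB, PIGF, PGAP2 and PGAP3, among others, overlap expressed genes on the opposite strand, and whether strand was used in counting is not given in the sources used here. Pigf, the gene with the lowest p, had a mean FPKM of 5.03 in BAT beside 60.4 for Rhoq on the other strand, and PGAP2 had 24.5 in HEK293T beside 40.4 for NUP98.

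Other genes around the pathway were read as lists chosen by function. In HEK293T, 0 of 11 other genes of GPI handling and transport, 0 of 9 genes of mannose and dolichol donors and 0 of 34 GPI-anchored proteins passed the adjusted threshold in either knockout. At the unadjusted threshold, 2, 2 and 0 were higher and 0 lower in HRD1 KO (0.943% and 1.06% of all genes), and 1, 0 and 0 were higher and 1, 0 and 0 lower in SEL1L KO (0.715% and 0.779%). CD59, a GPI-anchored inhibitor of complement, had FPKM values of 30.44, 35.91 and 36.7 in WT, 36.49, 33.95 and 32.34 in HRD1 KO, and 30.96, 32.95 and 37.36 in SEL1L KO, so that the groups overlapped. Its change was −0.00 and −0.02 (SE 0.17 for both).

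In BAT, 5 of 10 other GPI genes, 5 of 9 donor genes and 6 of 28 GPI-anchored proteins were higher in Hrd1 KO and 0 lower at the unadjusted threshold (25.4% and 2.02% of all genes). In the same order, 4, 4 and 8 were higher and 0, 0 and 2 lower in Sel1L KO (12.7% and 5.08%). The gene of these lists past the adjusted threshold was Gpc1, a GPI-anchored heparan sulfate proteoglycan. Its FPKM was 1.5, 1.32 and 2.05 in WT, 13.13 and 13.29 in Hrd1 KO, and 8.75, 14.98 and 10.64 in Sel1L KO. All knockout libraries exceeded all WT libraries. The change was 2.97 in Hrd1 KO (7.84-fold, SE 0.29, adjusted p = 0.00458) and 2.73 in Sel1L KO (6.65-fold, SE 0.26, adjusted p = 0.00822). After scaling it was 2.53 and 2.64, with adjusted p-values of 0.0126 and 0.0115, which miss the threshold of 0.01. Cd59a had FPKM values of 76.12, 81.0 and 69.71 in WT, 53.31 and 56.24 in Hrd1 KO, and 37.26, 51.18 and 60.18 in Sel1L KO, all below WT. Its change was −0.46 (SE 0.21, adjusted p = 0.194) in Hrd1 KO and −0.63 (SE 0.19, adjusted p = 0.139) in Sel1L KO. After scaling it was −0.91 (adjusted p = 0.0743) and −0.73 (adjusted p = 0.122).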

How the data were processed

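RNA of 17 libraries was extracted with TRIzol (TRI Reagent in the methods) and sequenced as read pairs on a shared flow cell. Per the methods and the labels, the authors mapped reads with STAR 2.7.8a to GRCh38 or GRCm38 and estimated abundance with RSEM 1.3.3, and deposited FPKM values, which are relative to each library's own total. FPKM are not counts, so the DESeq2 test of the study was not repeated.

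Changes were tested with limma 3.58.1 in R 4.3.3 (lmFit, contrasts.fit and eBayes with a trend) on log2(FPKM + 0.1), with the 3 genotypes of a table in the same fit, adjusted over 15796 genes in HEK293T and 12473 in BAT. Because 0.1 is added, the change of low genes is understated. Adjusted p-values were held to 0.05 in HEK293T, where the study used a p-value of that size, and to 0.01 in BAT, where it used a q-value. The fits were also run on simulated data. Those data had independent noise and larger changes than those of the pathway genes, so they do not show what could be detected here. The pathway genes and lists were chosen with earlier results of these data known. Named genes were the transamidase subunits, the other pathway genes past either threshold or with groups that do not overlap, the largest changes, CD59 and genes of other lists past the adjusted threshold. Genes past no such rule were named for their role or share of variation.

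The labels number the HEK293T replicates without saying that they are separate cultures, so p-values there measure only the spread between these samples, which may be technical. In HEK293T, deviations from the group means correlated at 0.216 to 0.485 over 9 pairs of libraries with the same number and at −0.396 to 0.027 over 18 other pairs, so the numbers pair the libraries. In BAT, 7 pairs with the same number gave −0.0602 to 0.0774. Alternatives were a pseudocount of 1, no filter, median-ratio scaling, the replicate block, other thresholds and each library left out. Relative depth was estimated from genes near the detection limit. Promoters came from the RefSeq table of GRCh38.p14, in which 26 of 31 pathway genes matched (GPAA1, PIGF, PIGG, PIGH and PIGY did not), and coordinates from GENCODE.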

Additional observations from a re-analysis of the deposited data

How the results depend on the processing

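In each of the 6 comparisons, 0 pathway genes passed the adjusted threshold with a pseudocount of 1, without a filter, after median-ratio scaling, at the other threshold, with a replicate block and without any 1 library. In HEK293T, where the numbers pair the libraries, the replicate block raised the genes called over the whole table from 9 to 25 in HRD1 KO and from 5 to 12 in SEL1L KO, with lowest adjusted p-values of the pathway of 0.856 and 0.847, and changed no call of a pathway gene. In BAT, where they share only a number, the block lowered the whole-table calls from 46 to 5 in Hrd1 KO and from 13 to 1 in Sel1L KO, again with 0 pathway genes called and with Gpc1 no longer called (adjusted p of 0.0363 and 0.032 by limma). The pathway median in BAT Hrd1 KO moved from 0.33 to −0.12 after scaling, by construction, since scaling removes the shift of all genes. In that group scaling turned the sign of 9 of 27 pathway genes (Dpm3, Mpdu1, Pigb, Pigh, Pign, Pigp, Pigq, Pigu and Pigx), from changes of 0.04 to 0.35 to changes of −0.39 to −0.09, the last being Pigu. It turned 5 of 27 in BAT Sel1L KO, to −0.08 to −0.03, with Pigs at −0.04 and Pigu at −0.05, 5 of 30 in HEK293T SEL1L KO, to 0.02 to 0.05, with PIGK and PIGU at 0.02, and 0 of 30 in HRD1 KO. Between the knockouts it turned 8 of 27 in BAT and 2 of 30 in HEK293T. CD59 came to 0.03 in both HEK293T knockouts.

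Leaving out 1 library turned the sign of some small changes in HEK293T HRD1 KO, which ranged from −0.09 to 0.05 for CD59, −0.16 to 0.57 for DPM3, −0.22 to 0.22 for GPAA1, −0.81 to 0.25 for PGAP1, −0.04 to 0.24 for PIGK, −0.04 to 0.15 for PIGS, −0.03 to 0.17 for PIGT and −0.03 to 0.24 for PIGU. The log2 ratio of PIGK to the other subunits also turned, with differences from WT of −0.24 to 0.29 in HEK293T HRD1 KO and −0.15 to 0.15 in BAT Sel1L KO. In SEL1L KO the ranges were −0.11 to 0.04 for CD59 and −0.17 to 0.05 for PIGU. In BAT they were −0.24 to 0.06 for Pigk in Hrd1 KO, and −0.16 to 0.14 for Gpaa1, −0.15 to 0.14 for Pigk, −0.15 to 0.42 for Pigs and −0.35 to 0.01 for Pigt in Sel1L KO. These ranges show how far an estimate moved when a library was left out, and they are not limits of detection. In HEK293T HRD1 KO the confidence intervals of the main fit were wider, at −0.31 to 0.42 for PIGT and −0.33 to 0.45 for PIGS. With 2 or 3 libraries a group and no read counts, the smallest detectable difference was not determined.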
